A study of Mus musculus with 12 samples.

Results

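Collagens are the structural proteins of the extracellular matrix, and each collagen gene codes for 1 chain of a 3-chain helix. The collagen genes of the ileum were taken as the rows of the count table whose mouse symbol reads Col, digits, a, digits with nothing after, a rule on names that used no measured value. It found 44 of the 54838 genes in the table. RNA was sequenced from the ileum of 12 C57BL/6J mice, 3 in each of 4 groups, to ask how zinc in the drinking water and a glucocorticoid act on gene expression in the gut, alone and together. The mice of the group water + PBS drank normal water and were injected with PBS, those of water + Dex drank normal water and received 200 µg dexamethasone (Dex, a synthetic glucocorticoid given as Rapidexon), those of ZnSO4 + PBS drank water with 25 mM ZnSO4 and received PBS, and those of ZnSO4 + Dex received both. The drinking water was given for 7 days, injections were intraperitoneal, and ileum was taken 2 h after them. The study's mice were 8 to 14 weeks old, the labels name no transgene or deletion, and the study's C57BL/6J mice were purchased females. Ileum was rinsed and stored for RNA with no step that separates its layers named in the sources used here. Fewer cells of a type and less RNA per cell cannot be told apart in such bulk tissue.

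The 3 chains of a collagen wind around each other and are then assembled outside the cell. Fibrillar collagens (types I, III and V) form the ropes of the lamina propria and submucosa, type IV collagen forms the sheet of basement membranes under the epithelium and around vessels and smooth muscle cells, and type VI collagen forms fine filaments next to those sheets. In the gut wall the chains are made mainly by fibroblasts, smooth muscle cells and endothelial cells. Glucocorticoids are known to lower collagen synthesis in skin and in cultured fibroblasts, and zinc is the catalytic metal of the matrix metalloproteinases that cut collagen.

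Col4a6 and Col4a5, the genes of the α6(IV) and α5(IV) chains, lie head to head on chromosome X with 1308 bp between their annotated ends (GENCODE, GRCm38), and Col6a4, a type VI chain, lies on chromosome 9. In GENCODE on GRCm38, Col4a6 (ENSMUSG00000031273) spans bases 141165403 to 141474076 on the minus strand, Col4a5 (ENSMUSG00000031274) 141475385 to 141689234 on the plus strand and Col6a4 (ENSMUSG00000032572) 105989454 to 106096783 on the minus strand. These 3 genes are shown with the sequence before their starts because they passed the test for zinc in the Dex-injected mice. The bases are from the RefSeq promoter table (GRCm38.p6), cut where GENCODE places the gene's first base, and are written 5′ to 3′ on the strand of the gene. Capitals mark the 7 motifs searched on both strands, which were the GC box GGGCGG, the box written CCAAT, the TATA box letters TATAAA, part of the glucocorticoid receptor site as AGAACA, the core of metal response elements as TGCACNC or, in another form, as TGCGCNC, and the CArG box bound by serum response factor.
Col4a5 (chrX:141475169-141475384, plus strand): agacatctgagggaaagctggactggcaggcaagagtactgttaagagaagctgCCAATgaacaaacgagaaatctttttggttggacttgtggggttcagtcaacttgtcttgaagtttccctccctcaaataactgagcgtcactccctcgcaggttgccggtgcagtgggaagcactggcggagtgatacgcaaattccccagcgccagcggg
Col4a6 (chrX:141474077-141474326, minus strand): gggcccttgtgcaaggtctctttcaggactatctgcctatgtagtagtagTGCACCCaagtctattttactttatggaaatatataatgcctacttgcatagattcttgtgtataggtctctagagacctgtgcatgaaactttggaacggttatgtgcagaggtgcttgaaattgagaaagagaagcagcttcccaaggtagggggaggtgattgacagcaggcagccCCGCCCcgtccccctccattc
Col6a4 (chr9:106096784-106096941, minus strand): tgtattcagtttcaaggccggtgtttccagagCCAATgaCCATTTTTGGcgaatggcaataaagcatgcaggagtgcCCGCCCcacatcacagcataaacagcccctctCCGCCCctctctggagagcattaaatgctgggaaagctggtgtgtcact
The Col6a4 stretch held 1 CArG box, starting 211 bases before the RefSeq start, next to a CCAAT without overlap and followed by 2 GC boxes on the other strand. The Col4a6 stretch held 1 TGCACNC and 1 GC box, and the Col4a5 stretch 1 CCAAT. A GC box 30 bases before the RefSeq start of Col4a5 lies past the GENCODE start, where the printed stretch was cut. Promoter windows of 300 bases (250 before and 50 after the start) were found for 35 of the 44 collagen genes, 38 windows in all. AGAACA stood in 2 of these 38 windows (5.26%) and in 19.0% of all 32851 windows, TGCACNC in 13.2% against 12.6%, TGCGCNC in 23.7% against 15.4%, the GC box in 60.5% against 35.7%, CCAAT in 34.2% against 37.4%, TATAAA in 13.2% against 13.6% and the CArG box in 2.63% against 1.63%. The letters describe these windows only and say nothing of binding.

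The libraries held 10760132 to 11827487 counts, of which 0.162 to 0.326% fell on collagen genes. Adjusted p-values are from edgeR's quasi-likelihood test with Benjamini-Hochberg adjustment over the 15938 genes that passed a filter on low counts, LFC is the log2 fold change on the scale of normalised read counts, and "rose" or "fell" is used for adjusted p under 0.05. The p-values weigh a difference between group means against the spread of mice within groups, estimated over all 12 libraries. The zinc-induced metallothionein gene Mt1 rose in ZnSO4 + PBS (LFC 4.79) and the Dex-induced genes Fkbp5 and Tsc22d3 rose in water + Dex (LFC 3.34 and 3.10), which checks the labels. The zinc importer gene Slc39a4 fell in ZnSO4 + PBS (LFC -2.95). CPM is the count scaled to a common library total. The 9 epithelial markers of the list used for ileum summed to 13220 to 28790 CPM, lowest in ZnSO4 + Dex replicate 2, and markers of fibroblasts (829 to 1168 CPM) and smooth muscle (1419 to 2987 CPM) were found in every library. ZnSO4 + PBS replicate 3 and ZnSO4 + Dex replicate 2 stood apart with 2987 and 2947 CPM of smooth muscle markers against at most 2356 in the other 10 libraries, and with 3102 and 2989 CPM of collagen against at most 2527. Results below are therefore also given without these libraries.

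Collagen mRNA of the ileum was dominated by the chains of types III, VI, IV and I. Per kb of transcript, the level of Col3a1, the only chain of type III collagen, was highest at 82.3 CPM per kb over the 12 libraries. It was followed by the type VI chains Col6a1 (43.7) and Col6a2 (42.9), the type IV chain Col4a1 (40.3), the type I chain Col1a2 (37.8), Col1a1 (25.0) and Col4a2 (22.7 CPM per kb). On the CPM per kb scale the ratio of Col1a1 to Col1a2 was 0.607 to 0.718, that of Col6a1 to Col6a2 0.956 to 1.10 and that of Col4a1 to Col4a2 1.63 to 1.99. The ratios of Col4a5 to Col4a6 (2.29 to 3.83), Col6a1 to Col6a3 (3.44 to 4.81) and the low Col4a3 to Col4a4 (1.89 to 5.17) ranged more widely, and that of Col3a1 to Col1a1, chains of different collagens, was 3.00 to 3.69. Col2a1, the cartilage fibril chain, was lowest with 2 reads over all 12 libraries, and Col17a1, of skin, had 47. In all, 10 of the 44 genes (Col2a1, Col6a6, Col9a1, Col9a3, Col10a1, Col11a1, Col17a1, Col19a1, Col25a1 and Col26a1) had 2 to 76 reads over the 12 libraries, did not pass the filter and were not tested. The other 34 are described below.

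**Figure D1:**
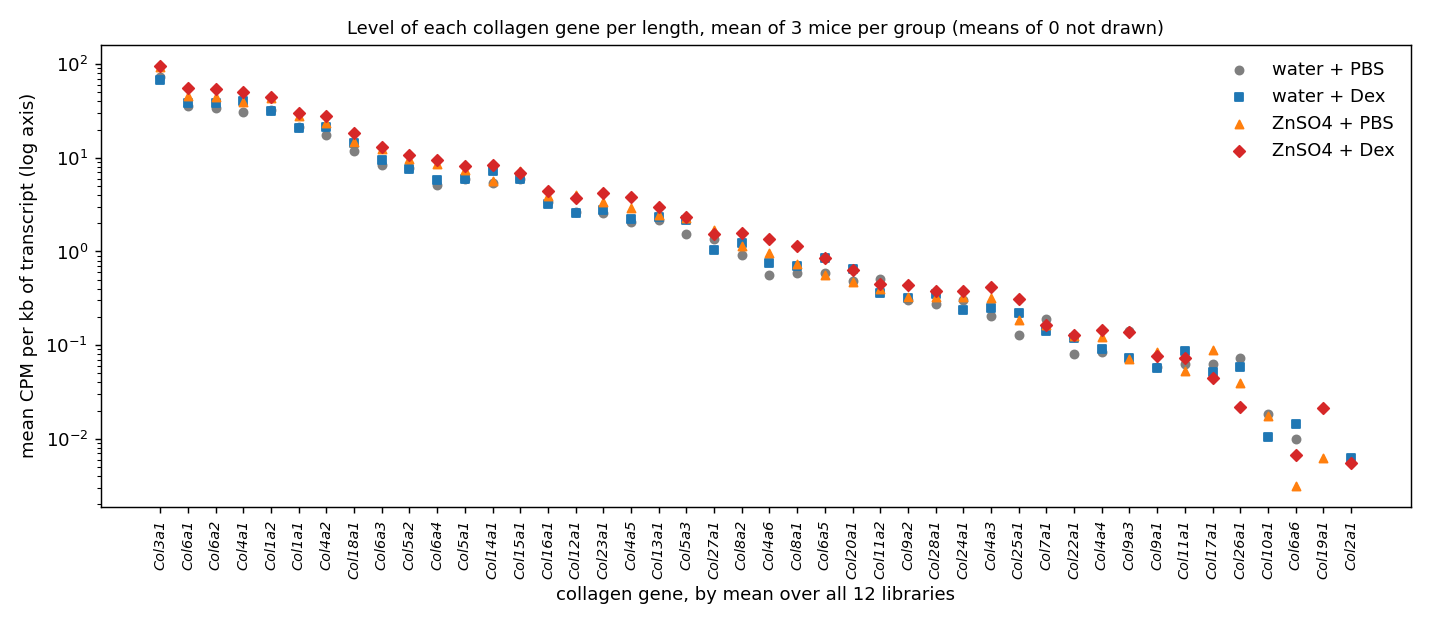
Mean CPM per kb of principal transcript (log axis) of the 44 collagen genes in each of the 4 groups, 3 mice each, ordered by the mean over 12 libraries. Levels run from 82.3 CPM per kb for Col3a1 to 0.00292 CPM per kb for Col2a1, and the ZnSO4 + Dex means are above the water + PBS means for most genes of the upper part.

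With zinc alone (ZnSO4 + PBS against water + PBS), collagen genes stood somewhat higher, but only 2 of the 34 tested, Col4a6 and Col6a4, rose and none fell. This is 5.88% of the members, where 2.11% of all genes tested rose, 2.54% fell and 4.66% passed in either direction. An unadjusted p under 0.05 was reached by 10 members, all higher, and by 19.8% of all genes. The fitted LFC was above 0 for 30 of 34 members, with a median of 0.34 against -0.01 over all genes, and 6 members (17.6%) had all 3 zinc mice above all 3 controls, against 12.4% of all genes, and 0 members lay below, against 12.9%. Without ZnSO4 + PBS replicate 3 and ZnSO4 + Dex replicate 2 the median was 0.13 and Col6a4 alone passed, where 3.02% of all genes passed.

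With Dex alone (water + Dex against water + PBS), 0 of the 34 collagen genes passed in either direction by edgeR, while 5.41% of all genes tested rose, 4.51% fell and 9.93% passed. At an unadjusted p under 0.05 there were 4 (Col4a1, Col4a6, Col5a3 and Col14a1, each higher), against 22.7% of all genes, and DESeq2 called 0. The LFC was above 0 for 24 of 34 members with a median of 0.12 against -0.01 over all genes, and 7 members (20.6%) had all 3 Dex mice above all 3 controls, against 15.2% of all genes. The fibrillar chains had 2 of 9 above 0 and a median of -0.03. Without the 2 libraries named above, which are not in these groups but share the estimate of spread, Col4a1 passed, with 11.5% of all genes.

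In Dex-injected mice, zinc (ZnSO4 + Dex against water + Dex) went with an LFC above 0 in nearly the whole family, and 3 of 34 members, Col4a5, Col4a6 and Col6a4, rose (8.82%, against 1.83% of all genes that rose, 2.54% that fell and 4.37% that passed). At an unadjusted p under 0.05 there were 16, all higher, against 19.1% of all genes. The LFC was above 0 for 33 of 34 members with a median of 0.48, against 0.01 over all genes. All 3 ZnSO4 + Dex mice were above all 3 water + Dex mice for 22 members (64.7%), against 12.7% of all genes, and 0 lay below, against 13.2%. DESeq2 called 6, adding Col6a1, Col6a2 and Col23a1, and 6.41% of all genes. Without the 2 libraries that stood apart Col4a6, Col6a1 and Col6a4 passed, with 3.29% of all genes.

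In zinc-drinking mice, Dex (ZnSO4 + Dex against ZnSO4 + PBS) left Col4a6 as the only member that rose, 1 of 34 (2.94%), where 6.65% of all genes rose, 7.08% fell and 13.7% passed. At an unadjusted p under 0.05 there were 4 members against 26.3% of all genes, and 4 members did not overlap and were higher against 14.2%, with 0 lower against 14.9%. The LFC was above 0 for 30 of 34 with a median of 0.24 against 0.01. This count changed with the library that was left out. Without ZnSO4 + PBS replicate 3, the library of its group highest in collagen, 7 members rose (Col4a1, Col4a2, Col4a6, Col6a1, Col6a2, Col6a4 and Col8a1). In that fit 10.5% of all genes passed. The call of Col4a6 was lost when any of the other 11 libraries was left out. DESeq2 also called 1 member, but that was Col14a1 (adjusted p = 0.0312), and Col4a6 did not pass there (adjusted p = 0.0993). It called 14.8% of all genes.

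With both treatments (ZnSO4 + Dex against water + PBS), 13 of 34 collagen genes rose and none fell, 38.2% of the members against 11.5% of all genes that rose, 11.9% that fell and 23.3% that passed. At an unadjusted p under 0.05 there were 19, all higher, against 36% of all genes. The 13 were 5 of the 6 type IV chains (Col4a1, Col4a2, Col4a3, Col4a5 and Col4a6), 4 of 5 type VI chains (Col6a1, Col6a2, Col6a3 and Col6a4), the transmembrane collagens Col13a1 and Col23a1, the fibril-associated Col14a1 and the multiplexin Col18a1, and 0 of 9 fibrillar chains. The LFC was above 0 for 32 of 34, with a median of 0.58, and 20 members (58.8%) had all 3 treated mice above all 3 controls, against 18% of all genes, and 0 lay below, against 18.9%. The calls of Col4a1, Col4a2, Col4a5, Col4a6, Col6a1, Col6a4 and Col23a1 were kept when any 1 of the 12 libraries was left out. Without water + PBS replicate 2 or without ZnSO4 + Dex replicate 2 these 7 were all that remained, with 17.5% and 20% of all genes passing. DESeq2 called 14, without Col13a1 and with Col5a3 and Col8a1, and 23.6% of all genes. Where an LFC above 0.8 in size was asked for beside the adjusted p, 0 of 34 members passed for zinc alone (1.7% of all genes), 0 for Dex alone (4.42%), 1 for zinc in Dex mice (1.9%), 0 for Dex in zinc mice (5.81%) and 4 for both treatments (9.66%). The 5 comparisons share groups and their members share libraries, so neither are replicates of each other.

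The interaction of zinc and Dex, which tests whether the response to Dex differs between water and zinc mice, passed for 0 of the 34 members by edgeR, with 0 at an unadjusted p under 0.05 and 0 by DESeq2. For all genes tested, 0% passed after adjustment and 4.98% had an unadjusted p under 0.05. The lowest adjusted p of a member was 0.959. The interaction was 0.07 ± 0.22 (SE) for Col4a6 and 0.11 ± 0.38 (SE) for Col1a1 on the log2 scale.

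**Figure D2:**
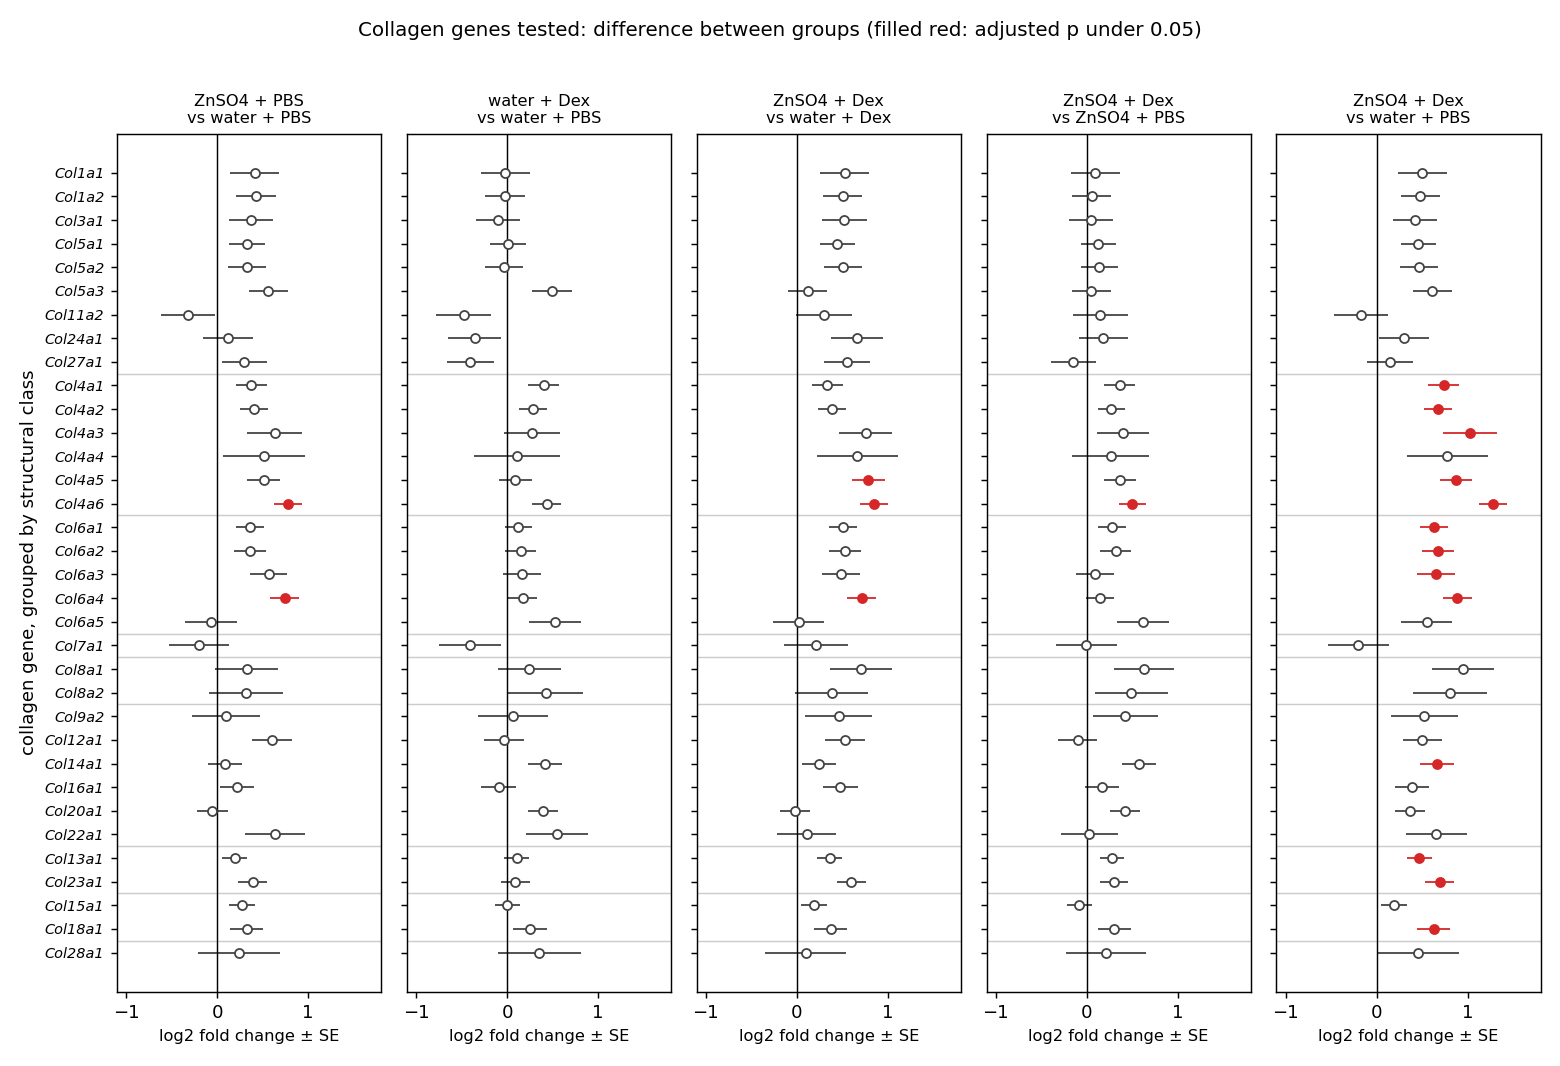
LFC ± SE (x axis, log2 scale) of the 34 collagen genes tested in 5 comparisons, ordered by structural class with grey lines between classes. Filled red points have an adjusted p under 0.05, and 13 of them are in the comparison of both treatments with the untreated group, all to the right of 0 and none in the fibrillar class at the top.

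Among the basement membrane chains, Col4a6 changed most. Its normalised read counts were 48.6, 38.1 and 40.9 in water + PBS, 61.3, 54.01 and 57.3 in water + Dex, 63.2, 70.5 and 85.2 in ZnSO4 + PBS and 108, 93.2 and 109 in ZnSO4 + Dex. Zinc mice were above water mice under either injection and Dex mice above PBS mice under either water, with no overlap between groups. LFC was 0.78 ± 0.16 (SE) for zinc alone (adjusted p = 0.0185), 0.84 ± 0.15 (SE) for zinc in Dex mice (adjusted p = 0.0106) and 0.50 ± 0.15 (SE) for Dex in zinc mice (adjusted p = 0.0465). Dex alone did not pass, with LFC 0.43 ± 0.16 (SE) (adjusted p = 0.122). With both treatments it rose 2.42-fold (LFC 1.28 ± 0.16 (SE), adjusted p = 0.000158). The call for zinc alone was lost without water + PBS replicate 2 or 3 or without ZnSO4 + PBS replicate 3 (adjusted p up to 0.0756), and that for zinc in Dex mice without water + Dex replicate 2 (adjusted p = 0.0526).

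Col4a5, whose chain pairs with α6(IV) around smooth muscle and with α3 and α4 in the kidney, had normalised read counts of 176, 131 and 154 in water + PBS, 153, 196 and 143 in water + Dex, 195, 189 and 273 in ZnSO4 + PBS and 286, 314 and 246 in ZnSO4 + Dex. The ZnSO4 + Dex mice were above every water mouse. It rose with zinc in Dex mice (LFC 0.79 ± 0.18 (SE), adjusted p = 0.0302) and with both treatments (LFC 0.87 ± 0.18 (SE), adjusted p = 0.00458), and for zinc alone gave 0.51 ± 0.18 (SE) (adjusted p = 0.135). The call for zinc in Dex mice was lost without water + Dex replicate 1 or 3 or ZnSO4 + Dex replicate 1 or 2 (adjusted p up to 0.122).

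Col4a1 and Col4a2 code for the chains of the common basement membrane collagen and lie head to head on chromosome 8, with annotated starts that overlap by 22 bp. Normalised read counts of Col4a1 were 2715, 2248 and 1940.3 in water + PBS, 2985, 3097 and 3055 in water + Dex, 2494, 2532 and 3920.1 in ZnSO4 + PBS and 3922, 4127 and 3458 in ZnSO4 + Dex. Those of Col4a2 were 1458, 1295 and 1149 in water + PBS, 1589, 1672 and 1499.8 in water + Dex, 1496, 1457 and 2205 in ZnSO4 + PBS and 2026, 2295 and 1902 in ZnSO4 + Dex. For both genes the 3 water + Dex mice were above the 3 water + PBS mice and the 3 ZnSO4 + Dex mice above all water mice, while in ZnSO4 + PBS replicate 3 alone reached the level of ZnSO4 + Dex. They rose with both treatments (Col4a1 LFC 0.74 ± 0.17 (SE), adjusted p = 0.00917, and Col4a2 LFC 0.67 ± 0.15 (SE), adjusted p = 0.00777) and in no other comparison of the main edgeR fit (12 libraries, TMM factors, no added term). For Dex alone Col4a1 had LFC 0.40 ± 0.17 (SE) (adjusted p = 0.18). Without the 2 libraries that stood apart it passed at adjusted p = 0.0417.

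Col4a3 and Col4a4, 71 bp apart on chromosome 1 and best known from the kidney filter, were low. Col4a3 had normalised read counts of 15.6, 22.1 and 22.8 in water + PBS, 24.5, 31.3 and 17.3 in water + Dex, 38.7, 21.04 and 34.3 in ZnSO4 + PBS and 34.2, 51.9 and 37.4 in ZnSO4 + Dex, and rose with both treatments (LFC 1.03 ± 0.30 (SE), adjusted p = 0.0273). Its call was lost without water + PBS replicate 1 or 2 or ZnSO4 + Dex replicate 2 (adjusted p up to 0.0995). Of its exonic bases, 5.65% lie opposite an exon of another gene. Col4a4 had group means of 9.74 ± 0.71, 10.5 ± 3.04, 13.98 ± 6.32 and 16.7 ± 9.36 (SD, n = 3, groups in the same order) and passed in no comparison.

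Among the type VI chains tested, Col6a4 had the largest LFC for zinc, under either injection, and for both treatments. Its normalised read counts were 433, 421 and 442 in water + PBS, 482, 521 and 458 in water + Dex, 574, 633 and 959 in ZnSO4 + PBS and 737, 785 and 873 in ZnSO4 + Dex. Every zinc mouse was above every water mouse. Of its exonic bases, 3.39% lie opposite an exon of another gene, whose reads may be counted with it where strand was not used. Col6a4 rose with zinc alone (LFC 0.74 ± 0.16 (SE), adjusted p = 0.0233), with zinc in Dex mice (LFC 0.71 ± 0.16 (SE), adjusted p = 0.0271) and with both treatments (LFC 0.89 ± 0.16 (SE), adjusted p = 0.00196). It did not pass for Dex alone (LFC 0.17 ± 0.16 (SE), adjusted p = 0.575) or for Dex in zinc mice (LFC 0.14 ± 0.16 (SE), adjusted p = 0.614). The call for zinc alone was lost without any 1 of the 3 water + PBS mice (adjusted p up to 0.0764) and that for zinc in Dex mice without any 1 of the 6 mice compared (adjusted p up to 0.0989).

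Col6a1, Col6a2 and Col6a3 code for the chains of the main type VI collagen. Col6a1 had normalised read counts of 1769, 1528 and 1685 in water + PBS, 1767, 1895 and 1768 in water + Dex, 1749, 1858 and 2772 in ZnSO4 + PBS and 2561, 2855 and 2309 in ZnSO4 + Dex. Those of Col6a2 were 1782, 1333 and 1527 in water + PBS, 1651, 1816 and 1677 in water + Dex, 1613, 1691 and 2645 in ZnSO4 + PBS and 2388, 2767 and 2254 in ZnSO4 + Dex. For both genes the 6 water mice and ZnSO4 + PBS replicates 1 and 2 lay together, and ZnSO4 + PBS replicate 3 and the 3 ZnSO4 + Dex mice above them. Col6a3 had 1044, 697 and 841 in water + PBS, 904, 1103 and 888 in water + Dex, 983, 1066 and 1767 in ZnSO4 + PBS and 1249, 1443 and 1367 in ZnSO4 + Dex. With both treatments they rose (Col6a1 LFC 0.63 ± 0.15 (SE), adjusted p = 0.0112; Col6a2 LFC 0.67 ± 0.17 (SE), adjusted p = 0.016; Col6a3 LFC 0.65 ± 0.21 (SE), adjusted p = 0.0414). The call of Col6a2 was lost without water + PBS replicate 2 or ZnSO4 + Dex replicate 2 (adjusted p up to 0.0642), and that of Col6a3 without any of 7 libraries (adjusted p up to 0.144). Col6a5, a low type VI chain, passed in no comparison and had 90.9 ± 7.07 normalised read counts in ZnSO4 + Dex and 62.1 ± 18.3 in water + PBS (SD, n = 3). For Dex it had the largest LFC of the type VI chains tested. This was 0.53 ± 0.28 (SE) in water mice (adjusted p = 0.304) and 0.62 ± 0.28 (SE) in zinc mice (adjusted p = 0.189).

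**Figure D3:**
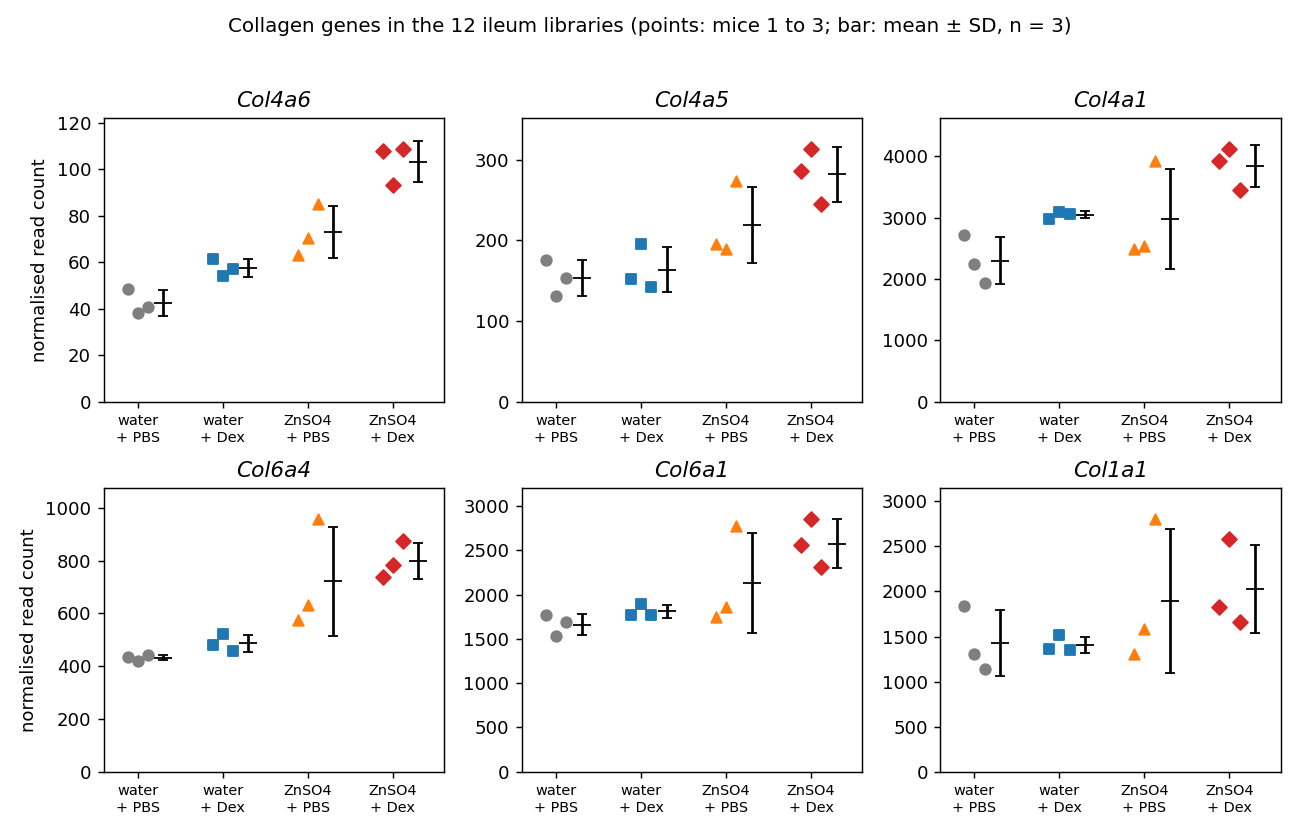
Normalised read counts (y axis from 0) of 6 collagen genes in each mouse of the 4 groups, with the mean ± SD (n = 3) as a black bar. Col4a6 steps up from 42.5 in water + PBS to 103 in ZnSO4 + Dex with no overlap of neighbouring groups, whereas in Col1a1 the ZnSO4 + PBS and ZnSO4 + Dex groups are spread by 1 high mouse each.

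The fibrillar chains, which held the largest share of collagen reads, passed in no comparison by edgeR on all 12 libraries. With both treatments DESeq2 called Col5a3 (adjusted p = 0.0386), and Col1a2, Col5a1 and Col5a3 passed in edgeR without ZnSO4 + PBS replicate 3 (adjusted p = 0.0444 for Col1a2), Col5a3 also without ZnSO4 + Dex replicate 3. Col1a1, of type I collagen, had normalised read counts of 1842, 1301 and 1141 in water + PBS, 1360.3, 1514 and 1351 in water + Dex, 1301, 1585 and 2808 in ZnSO4 + PBS and 1829, 2578 and 1664 in ZnSO4 + Dex. Those of its partner Col1a2 were 2315, 1849 and 1696 in water + PBS, 1914, 2090.2 and 1760.3 in water + Dex, 1866, 2342 and 3653 in ZnSO4 + PBS and 2509, 3260.5 and 2398 in ZnSO4 + Dex. ZnSO4 + PBS replicate 3 and ZnSO4 + Dex replicate 2 were highest for both, and water + PBS replicate 1 was higher than the other controls. Col3a1 had 6108, 3665 and 3949 in water + PBS, 4255, 4628 and 3891 in water + Dex, 4368, 5179 and 8236 in ZnSO4 + PBS and 5779, 7302 and 5256 in ZnSO4 + Dex. With both treatments LFC was 0.50 ± 0.27 (SE) for Col1a1 (adjusted p = 0.203), 0.48 ± 0.22 (SE) for Col1a2 (adjusted p = 0.135) and 0.42 ± 0.24 (SE) for Col3a1 (adjusted p = 0.24). For Dex alone the 3 were -0.02 ± 0.27 (SE), -0.02 ± 0.22 (SE) and -0.10 ± 0.24 (SE), with adjusted p of 0.847 to 0.978. The type V chains Col5a1 and Col5a2, which set the width of type I fibrils, had LFC of 0.46 and 0.47 with both treatments, and Col5a3 0.61 (adjusted p = 0.0609). Col11a2 and Col27a1, known from cartilage, were the 2 members whose 3 water + Dex mice lay below all 3 water + PBS mice (LFC -0.47 and -0.40, adjusted p 0.397 and 0.39), where 14.5% of all genes did so.

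The shares of fibrillar and type IV chains in collagen reads did not overlap between water + PBS and water + Dex. Fibrillar chains held 44.7 to 49.8% of collagen counts in water + PBS and 40.7 to 42.6% in water + Dex, and type IV chains 18.3 to 20.6% and 21.9 to 23.2%. In ZnSO4 + PBS the shares were 43.3 to 48.3% and 18.5 to 20.8%, and in ZnSO4 + Dex 41.3 to 45.4% and 20.3 to 22.2%, which overlap. An exact permutation test of 3 against 3 mice cannot go below p = 0.10, so the shares are given without a test.

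Outside these classes, 4 genes rose with both treatments and in no other comparison of the main edgeR fit. Col23a1 also passed for zinc in Dex mice by DESeq2, with upper-quartile factors, a stricter filter, or the B cell or fibroblast term. Col14a1 also passed for Dex in zinc mice by DESeq2, with a looser filter or with the fibroblast term. Col23a1, a transmembrane collagen, had normalised read counts of 164, 147 and 190.0 in water + PBS, 151, 187 and 198 in water + Dex, 216, 181 and 261 in ZnSO4 + PBS and 263, 299.6 and 248 in ZnSO4 + Dex, with the 3 ZnSO4 + Dex mice above every water mouse (LFC 0.69 ± 0.16 (SE), adjusted p = 0.00865). For zinc in Dex mice its LFC was 0.60 ± 0.16 (SE) (adjusted p = 0.0562). Col13a1, also transmembrane and known from the neuromuscular junction, had 84.6, 72.2 and 76.97 in water + PBS, 70.2, 95.1 and 86.4 in water + Dex, 89.6, 86.01 and 91.7 in ZnSO4 + PBS and 111, 114 and 98.3 in ZnSO4 + Dex. Its differences were small against a narrow spread (LFC 0.47 ± 0.14 (SE), adjusted p = 0.0278; DESeq2 adjusted p = 0.055). Col18a1, the basement membrane collagen from which endostatin is cut, had 742, 676 and 533 in water + PBS, 702, 844 and 784 in water + Dex, 662, 729 and 1049 in ZnSO4 + PBS and 944, 1211 and 856 in ZnSO4 + Dex (LFC 0.63 ± 0.19 (SE), adjusted p = 0.0308). Col14a1, which coats fibrils, had 360.0, 339 and 339 in water + PBS, 380.2, 528 and 481 in water + Dex, 383, 328 and 392 in ZnSO4 + PBS and 591, 675 and 375 in ZnSO4 + Dex. The water + Dex mice were above the water + PBS mice, and ZnSO4 + Dex replicates 1 and 2 above all PBS mice, while replicate 3 lay inside the range of ZnSO4 + PBS (both treatments LFC 0.66 ± 0.19 (SE), adjusted p = 0.0247; Dex in zinc mice LFC 0.58 ± 0.19 (SE), adjusted p = 0.0635). The calls of Col13a1, Col14a1 and Col18a1 were lost without water + PBS replicate 2 or 3 or ZnSO4 + Dex replicate 1 or 2, and that of Col14a1 also without water + PBS replicate 1 (adjusted p up to 0.111). Of the other members, Col8a1, a short-chain collagen of vessel walls, was the nearest to passing with both treatments after Col5a3 (LFC 0.95 ± 0.34 (SE), adjusted p = 0.0651). The other 9 members tested, Col8a2 (0.81), Col9a2 (0.53), Col12a1 (0.50), Col15a1 (0.19), Col16a1 (0.39), Col20a1 (0.37), Col22a1 (0.66), Col28a1 (0.45) and the fibrillar chain Col24a1 (0.31), with their LFC for both treatments, passed in no comparison of the main fit. Col12a1 passed with both treatments in a fit of the compared groups alone and without the 2 libraries that stood apart. Col7a1, the anchoring fibril of skin, and Col11a2 were the 2 members with an LFC below 0 in that comparison (-0.20 and -0.17).

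The libraries highest in smooth muscle markers were also highest in collagen reads. After the 2 that stood apart came ZnSO4 + Dex replicates 1 and 3, with 2356 and 2022 CPM of markers and 2527 and 2326 CPM of collagen. Below them the order differed. There the lowest collagen, 1589 CPM, stood beside 1874 CPM of markers (water + PBS replicate 3). The highest, 2105 CPM, stood beside 1731 CPM (water + PBS replicate 1). Summed collagen CPM was 1589 to 2105 in water + PBS, 1805 to 2027 in water + Dex, 1818 to 3102 in ZnSO4 + PBS and 2326 to 2989 in ZnSO4 + Dex. The 9 smooth muscle markers summed to 1419 to 1874, 1796 to 1904, 1668 to 2987 and 2022 to 2947 CPM in the same order. All 9 had an LFC above 0 for zinc alone, for zinc in Dex mice and for both treatments, with medians of 0.30, 0.39 and 0.46, and Myh11 alone passed, with both treatments (LFC 0.70, adjusted p = 0.0445). With both treatments 11.5% of all genes rose and 11.9% fell. Pericyte markers had an LFC above 0 for 5 of 6 with both treatments and 3 rose, Cspg4 (1.51), Rgs5 (0.52) and Pdgfrb (0.42). Fibroblast markers were above 0 for 7 of 9 and Fbln1 alone rose (0.77). Among endothelial markers Emcn (0.88) and Esam (0.56) rose and Kdr fell (-0.82). Enteric glia and neuron markers summed to 32.5 to 40.8 CPM in the 6 water mice and 47.6 to 79.6 CPM in the 6 zinc mice. Their mean log2 CPM overlapped, with 1.837 in water + Dex replicate 3 and 1.765 in ZnSO4 + Dex replicate 3. LFC was above 0 for 7 of 8 with zinc alone (median 0.39) and for 6 of 8 with zinc in Dex mice (0.17). Ret, a receptor of enteric neurons, was the 1 of 8 that rose with zinc (LFC 1.31 with PBS and 1.46 with Dex), where 2.11% and 1.83% of all genes rose. Mesothelial markers were above 0 for 2 of 4 with both treatments and Upk1b fell (-0.78). All 8 B cell markers had an LFC below 0 in the 5 comparisons, with medians from -0.53 for zinc alone to -3.45 for both treatments and -1.70 for zinc in Dex mice, summed to 11.6 to 610 CPM and had no called member. Of 9 epithelial markers, 4 were below 0 for zinc alone, 1 for Dex alone, 8 for zinc in Dex mice, 8 for Dex in zinc mice and 7 for both treatments, where 1 fell, Krt20 (-0.58).

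**Figure D4:**
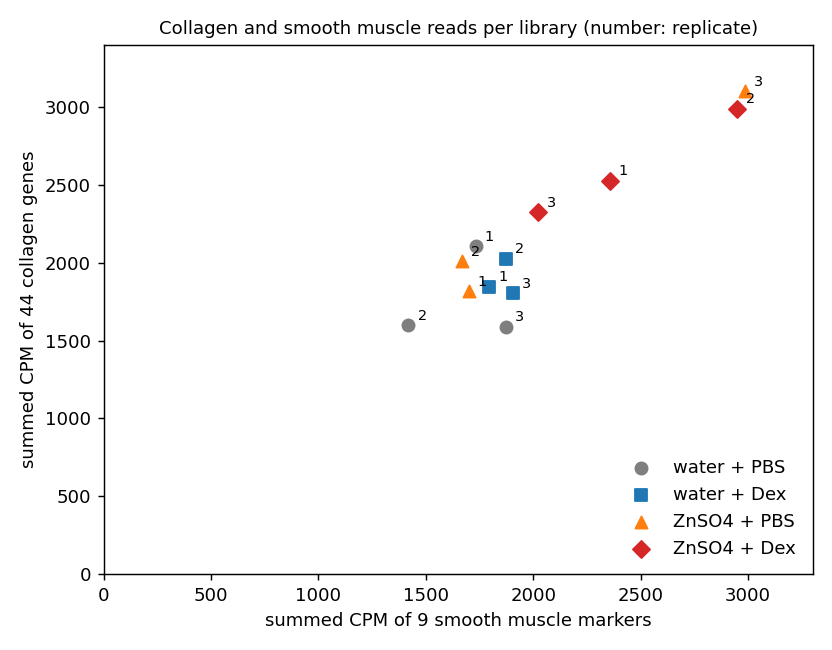
Summed CPM of the 44 collagen genes (y axis) against summed CPM of 9 smooth muscle markers (x axis), 1 point per library with its replicate number, both axes from 0. ZnSO4 + PBS replicate 3 (2987 and 3102) and ZnSO4 + Dex replicate 2 (2947 and 2989) lie together at the upper right.

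When the mean log2 CPM of the smooth muscle markers was added to the model as a term, the number of collagen genes that passed went from 2 to 0 for zinc alone, from 3 to 0 for zinc in Dex mice, from 1 to 0 for Dex in zinc mice and from 13 to 3 for both treatments. The share of all genes passing went from 4.66 to 2.74%, from 4.37 to 1.92%, from 13.7 to 13.2% and from 23.3 to 13.5%. The median LFC of the 34 members went from 0.34 to 0.09, from 0.48 to 0.23, from 0.24 to 0.16 and from 0.58 to 0.30. The genes that passed with both treatments were Col4a6 (LFC 1.16, adjusted p = 0.00199), Col6a4 (0.64, adjusted p = 0.0161) and Col4a5 (0.56, adjusted p = 0.042), while Col1a1 and Col3a1 came to -0.03 and -0.04. For zinc alone Col4a6 kept an LFC of 0.69 with adjusted p = 0.0613, and Col6a4 0.55 with adjusted p = 0.0672. For zinc in Dex mice Col4a6 kept 0.756 with adjusted p = 0.0506. A fibroblast marker term left 0, 4, 2 and 7 members in the same order, and 1.88, 3.78, 14.6 and 16.8% of all genes. Smooth muscle and fibroblast mRNA that the treatments changed and a larger piece of muscle in a sample cannot be told apart here. The fibroblast term, like the omission of libraries by their muscle markers, was chosen after seeing the data. Without the 2 libraries that stood apart, 12 members passed with both treatments, with a median LFC of 0.47, and 20.1% of all genes passed.

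**Figure D5:**
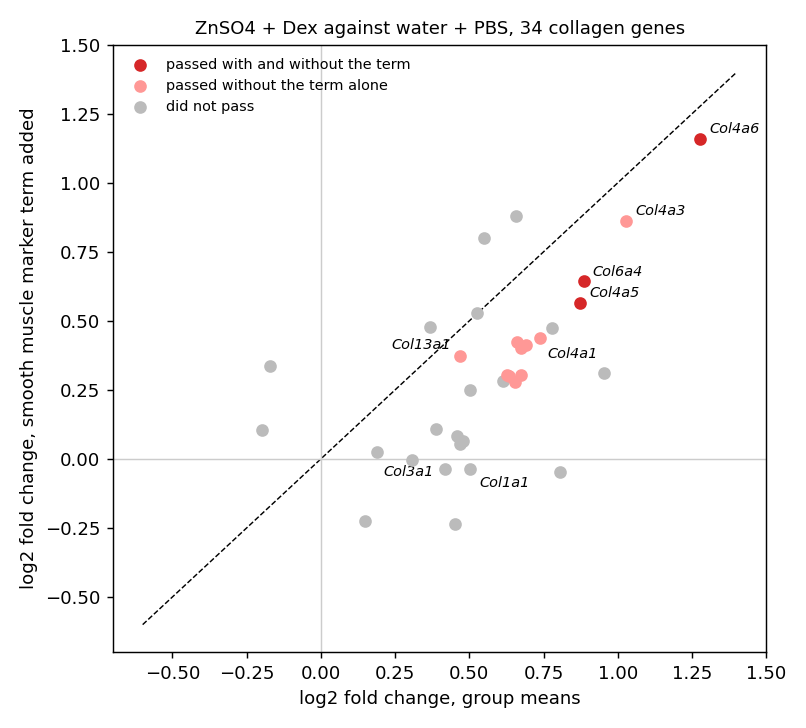
LFC with both treatments against the untreated group in the model of group means (x axis) and with a smooth muscle marker term (y axis) for 34 collagen genes. The dashed line marks equal values. Most points lie below it, and Col4a6 (1.28 and 1.16) lies close to it.

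Enzymes that process collagen chains changed with Dex, while no collagen gene passed for Dex alone. Of 27 genes of collagen biosynthesis tested, 5 rose and none fell in water + Dex, where 5.41% of all genes rose and 4.51% fell. The 3 largest rises were those of Adamts14, a procollagen N-proteinase (LFC 0.96 ± 0.19 (SE), adjusted p = 0.00823), of P4ha2, a prolyl 4-hydroxylase subunit that stabilises the helix (LFC 0.81 ± 0.17 (SE), adjusted p = 0.0113), and of Plod2, a lysyl hydroxylase (LFC 0.75 ± 0.12 (SE), adjusted p = 0.00176). In zinc mice 6 rose and 1 fell with Dex (6.65% and 7.08% of all genes), among them Adamts14 (LFC 1.505), Adamts3 (1.11) and P4ha2 (0.92), and Bmp1, the procollagen C-proteinase, fell (-0.43). Normalised read counts of Plod2 were 117 ± 10.5 in water + PBS, 197 ± 11.6 in water + Dex, 165 ± 20.4 in ZnSO4 + PBS and 246 ± 13.9 in ZnSO4 + Dex (SD, n = 3). With zinc alone 2 rose, Bmp1 (LFC 0.79) and Plod2 (0.49), and Ppib, a helix-folding isomerase, fell (-0.25), where 2.11% of all genes rose and 2.54% fell. With both treatments 7 rose and none fell (11.5% and 11.9% of all genes), led by Adamts14 (1.55), Adamts3 (1.43) and P4ha2 (1.09). In Dex mice P3h4 alone passed with zinc (0.84), where 4.37% of all genes passed. The call of P4ha2 for Dex alone was lost without water + Dex replicate 3, and those of Plod2 and Ppib for zinc alone without single libraries (7 and 10 of 12, adjusted p up to 0.141 and 0.153). That of P3h4 was lost without water + Dex replicate 1 or 2 or ZnSO4 + Dex replicate 2 or 3.

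The crosslinking enzyme Tgm2, a transglutaminase that acts on many proteins besides collagen, moved in opposite directions with the treatments. It had 2832 ± 269, 9126 ± 1057, 1273 ± 54.1 and 4498 ± 927 normalised read counts (SD, n = 3, water + PBS, water + Dex, ZnSO4 + PBS and ZnSO4 + Dex). It rose with Dex in water mice (LFC 1.69 ± 0.14 (SE)) and in zinc mice (1.82 ± 0.14 (SE)) and fell with zinc in PBS mice (-1.15 ± 0.14 (SE)) and in Dex mice (-1.02 ± 0.14 (SE)), with adjusted p of 0.00244 or less in the 4 comparisons. Of the 6 crosslinking genes it was the only one that passed in these 4, and with both treatments Lox, a lysyl oxidase, rose too (LFC 0.54, adjusted p = 0.0194). Of all genes, 9.93% and 13.7% passed with Dex, 4.66% and 4.37% with zinc, and 11.5% rose with both treatments.

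Among 12 genes of collagen degradation and its inhibitors tested, Mmp13, a collagenase, fell with Dex in water mice (LFC -1.30 ± 0.18 (SE), adjusted p = 0.000832) and in zinc mice (-0.88 ± 0.18 (SE), adjusted p = 0.00741). Timp3, a metalloproteinase inhibitor bound to the matrix, rose with Dex in both (0.77 and 0.67). Of all genes, 5.41% rose and 4.51% fell with Dex in water mice, and 6.65% and 7.08% in zinc mice. Mmp15, a membrane-bound metalloproteinase, rose with zinc under PBS and Dex (0.74 and 0.58), where 2.11% and 1.83% of all genes rose. With both treatments 3 rose (Timp3, Ctsk and Mmp15) and 2 fell (Mmp13 and Timp1), where 11.5% of all genes rose and 11.9% fell. Ddr1, a collagen receptor kinase, was the 1 of 9 receptors that passed, falling with Dex (-0.50 in water and -0.60 in zinc mice) and with both treatments (-0.33). In these comparisons 4.51, 7.08 and 11.9% of all genes fell. The calls of Ddr1 in water mice and with both treatments were lost without single libraries (adjusted p up to 0.0572 and 0.153).

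The laminins, nidogens and proteoglycans that share the basement membrane with type IV collagen passed only when both treatments were given, with the exception of Lama1. None of 17 passed for zinc alone by edgeR, with 17 of 17 above 0 and 13 at an unadjusted p under 0.05, and none for zinc in Dex mice, again with 17 above 0 and with 7 at an unadjusted p under 0.05. In these comparisons 4.66% and 4.37% of all genes passed, and 19.8% and 19.1% had an unadjusted p under 0.05. With Dex, Lama1 rose in water mice (LFC 0.61) and in zinc mice (0.56), where 5.41% and 6.65% of all genes rose. The call of either was lost without most single libraries (adjusted p up to 0.22 and 0.118). With both treatments 8 of 17 rose and none fell, where 11.5% of all genes rose and 11.9% fell, led by the laminin chains Lamc1 (LFC 0.90 ± 0.15 (SE), adjusted p = 0.00112), Lama2 (0.83 ± 0.21 (SE), adjusted p = 0.0136) and Lama1 (0.73 ± 0.17 (SE), adjusted p = 0.00838). Of 20 interstitial and elastic matrix genes, 1 rose with zinc alone (Fbln1, 0.66), 1 with zinc in Dex mice (Ltbp1, 0.46), 0 with Dex alone (2 at an unadjusted p under 0.05 and higher), 1 with Dex in zinc mice (Fbln5, 0.42) and those 3 with both treatments. In the same order of comparisons 2.11, 1.83, 5.41, 6.65 and 11.5% of all genes rose. Of 8 small leucine-rich proteoglycans, Prelp rose with Dex in water (0.42) and zinc mice (0.41), and Prelp (0.60) and Bgn (0.49) with both treatments. The Dex calls of Prelp, that of Ltbp1 in Dex mice and that of Fbln5 in zinc mice were lost without single libraries (adjusted p up to 0.152, 0.137 and 0.0729).

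Of 17 genes of TGF-beta signalling, a main inducer of collagen genes, 2 rose and 1 fell with Dex in water and the same genes passed in zinc mice. Of all genes, 5.41% rose and 4.51% fell with Dex in water mice, and 6.65% and 7.08% in zinc mice. Tgfbr3, a co-receptor, rose by LFC 0.87 and 0.80, Smad4, the common mediator, by 1.02 and 0.94, and the inhibitor Ski changed by -0.64 and -0.63. With zinc Smad4 fell, by 0.40 with PBS and by 0.48 with Dex on the log2 scale, with adjusted p up to 0.206 and 0.0879 when single libraries were left out. In either comparison 2.54% of all genes fell. With both treatments Tgfbr3 (1.17), Tgfb3, a ligand (0.84), and Smad4 (0.54) rose and Ski fell (-0.52), where 11.5% of all genes rose and 11.9% fell.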

How the data were processed

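RNA of mouse ileum (12 mice, 3 per group) was sequenced as single-end reads from a strand-specific library kit. Per the study's methods and the processing notes of the submitters, the authors trimmed reads with Trimmomatic, aligned them to mm10 with HISAT2 2.0.4 and counted reads per gene with featureCounts, leaving out multimapping reads, so genes that share sequence may be undercounted. The annotation release and the strand setting of counting are not given in the sources used here. The deposited values are raw counts per gene, and libraries held 10760132 to 11827487 counts. No pair of libraries of the same group agreed within sampling noise. The study tested genes with DESeq2 at a false discovery rate of 5%.

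From the counts, edgeR 4.0.16 (R 4.3.3) was run on all 12 libraries as a model of 4 group means, with filterByExpr (minimum count 10), TMM factors and the quasi-likelihood test, and p-values were adjusted by Benjamini and Hochberg over the 15938 genes tested. Calls are at adjusted p under 0.05. Normalised read counts are scaled to the mean effective library size of 11396844, and levels between genes are CPM per kb of the principal transcript in GENCODE M21 (GRCm38), in which 54809 of 54838 gene IDs had a symbol. SD is over the 3 mice of a group, and SE was taken as |LFC| over √F of the quasi-likelihood test. Members called in any comparison and the main chains are given per library, and from each other list at most the 3 largest called rises and falls per comparison are named. The collagen genes, the lists and the tests were chosen with earlier results of these data known. Alternatives were DESeq2 1.42.0, other scalings and filters, a replicate block, marker terms and each library left out. On simulated counts for 15736 genes, edgeR recovered 31.3% of 1.5-fold, 77.6% of 2-fold and 97% of 4-fold changes for both treatments against water + PBS, so changes below 2-fold are often missed.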

Additional observations from a re-analysis of the deposited data

How the results depend on the processing

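The number of collagen genes called was 2 for zinc alone, 0 for Dex alone, 3 for zinc in Dex mice, 1 for Dex in zinc mice and 13 for both treatments. Of all genes, 4.66, 9.93, 4.37, 13.7 and 23.3% were called in these comparisons. DESeq2 gave 2, 0, 6, 1 and 14 in the same order, the 1 being Col14a1 in place of Col4a6, and a fit of the compared groups alone 0, 0, 5, 0 and 13. The shares of all genes were 6.63, 10.9, 6.41, 14.8 and 23.6% with DESeq2. They were 2.67, 10.5, 3.48, 9.23 and 16.6% with the compared groups alone. The smooth muscle term gave 0, 0, 0, 0 and 3, the fibroblast term 0, 0, 4, 2 and 7, and the B cell term 2, 0, 4, 0 and 8. With the smooth muscle term 2.74, 10.3, 1.92, 13.2 and 13.5% of all genes were called. The fibroblast term gave 1.88, 9.47, 3.78, 14.6 and 16.8% of all genes. With the B cell term 4.72, 9.25, 4.63, 12.7 and 17.7% were called. RLE factors changed the count for Dex in zinc mice to 0, with 13.6% of all genes called. Leaving out ZnSO4 + PBS replicate 3 and ZnSO4 + Dex replicate 2 together gave 1, 1, 3, 7 and 12, and an LFC above 0.8 in size gave 0, 0, 1, 0 and 4. Without these 2 libraries 3.02, 11.5, 3.29, 9.64 and 20.1% of all genes were called. The cut-off of 0.8 left 1.7, 4.42, 1.9, 5.81 and 9.66%. Leaving out 1 library at a time gave 0 to 2, 0 to 0, 1 to 6, 0 to 7 and 7 to 17 called members, the 7 for Dex in zinc mice and the 17 for both treatments without ZnSO4 + PBS replicate 3. The share of all genes called also moved, over 1.74 to 6.19%, 5.76 to 11.4%, 1.98 to 4.27%, 9.18 to 13.4% and 16.4 to 22.7%. Without ZnSO4 + PBS replicate 3 it was 10.5% for Dex in zinc mice and 22.5% for both treatments. For zinc in Dex mice 6 were called without that library, and 1 without water + Dex replicate 1, 2 or 3 or ZnSO4 + Dex replicate 1 or 2. The shares of all genes were 4.23% in the first case and 2.01, 1.98, 2.02, 2.56 and 3.34% in the others. For zinc alone, 0 were called without water + PBS replicate 2 or 3, where 2.63 and 3.08% of all genes were called. The causes of these changes were not tested. The interaction had 0 called members under every alternative that was run for it. The residuals of same-numbered mice had a median correlation of -0.0557 in 18 pairs, and 0.0225 in the 36 pairs whose numbers differ. With 3 mice per group this cannot show whether same-numbered mice share more than a number. The replicate block gave 2, 0, 2, 0 and 11 called members, and 3.62, 8.96, 3.8, 12.6 and 21.7% of all genes. No alternative reversed the direction of a called collagen gene. At this depth and with 3 mice per group, 10 of the 44 genes were too low to test.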
